A study of Mus musculus with 472 samples.

Results

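Of all single retinal ganglion cells of the series, 110 (23.3%, exact 95% interval 19.6 to 27.4%) held transcripts of both Mmp9 and Htr1d at 10 counts or more per 1000000 gene counts (CPM), and these cells are described here against all the other cells. The cells were chosen by their measured Mmp9 and Htr1d values, so the levels of Mmp9 and Htr1d below are a description only. The cells came from retinas of C57BL/6J mice aged 7 to 9 weeks, with no treatment or genotype stated, and formed 1 group. Each cell was recorded with a patch pipette in a flat-mounted retina, its cytoplasm was drawn into the pipette, and its RNA was amplified by Smart-seq2, a full-length method without molecular identifiers. The labels name no animal, so the cells count as 1 sample: no test between cells was made, and the intervals cover counting error only.

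Retinal ganglion cells carry the output of the retina along the optic nerve and fall into many types that differ in shape, light response and gene expression. Mmp9 encodes a secreted gelatinase that cuts components of the extracellular matrix and is known for its part in synaptic remodelling and in the response of the retina to injury. Htr1d encodes a serotonin receptor that couples to inhibitory G proteins of the Gi/o class and often sits on axon terminals. Rasd2 encodes Rhes, a small GTPase that acts on G protein signalling, and Fam163a was given with it as a further marker of these cells.

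The 250 bases upstream of the annotated start are shown for Htr1d, which chose the cells, for Fam163a and Rasd2, the markers that did not, and for Pcdh8, a protocadherin gene that ranked among the largest differences and whose window holds a TATAAA match. Sequences are from RefSeq on GRCm38.p6, the patch release of the mm10 build, and are written 5′ to 3′ on the strand of the gene. Of 17 genes looked up, 12 had an entry and 7 had one at the annotated start. Capitals mark matches on either strand to ATTAAT (the core of sites bound by POU4F factors), GGGCGG (the GC box), TATAAA (the TATA box), CACGTG (E-box) or CCAAT.
Htr1d, chr4:136423274-136423523, plus strand: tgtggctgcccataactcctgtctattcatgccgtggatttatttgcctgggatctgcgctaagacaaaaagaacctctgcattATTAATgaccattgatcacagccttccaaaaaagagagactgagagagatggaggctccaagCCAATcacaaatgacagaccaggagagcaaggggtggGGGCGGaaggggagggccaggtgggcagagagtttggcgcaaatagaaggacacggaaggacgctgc
Fam163a, chr1:156205027-156205276, minus strand: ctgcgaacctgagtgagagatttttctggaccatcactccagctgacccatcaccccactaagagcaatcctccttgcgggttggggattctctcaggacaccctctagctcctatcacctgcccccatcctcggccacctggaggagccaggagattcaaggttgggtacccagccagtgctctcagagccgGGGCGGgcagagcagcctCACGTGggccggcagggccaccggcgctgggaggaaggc
Rasd2, chr8:75213694-75213943, plus strand: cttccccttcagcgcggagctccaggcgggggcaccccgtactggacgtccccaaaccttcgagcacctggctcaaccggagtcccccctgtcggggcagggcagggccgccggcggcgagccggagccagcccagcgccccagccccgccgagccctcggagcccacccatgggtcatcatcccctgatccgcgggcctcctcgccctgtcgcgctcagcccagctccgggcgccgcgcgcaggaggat
Pcdh8, chr14:79771313-79771562, minus strand: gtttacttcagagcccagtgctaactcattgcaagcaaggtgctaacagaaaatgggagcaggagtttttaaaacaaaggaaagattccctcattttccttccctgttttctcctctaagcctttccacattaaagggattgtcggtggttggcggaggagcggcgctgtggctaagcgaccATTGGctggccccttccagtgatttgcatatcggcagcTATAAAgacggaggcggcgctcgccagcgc
The Htr1d window held 1 ATTAAT, 1 GGGCGG and 1 CCAAT match, and the Fam163a window held 1 GGGCGG and 1 CACGTG match. The Rasd2 window, 75.2% G and C, matched 0 of the 5 motifs, and the Pcdh8 window held 1 TATAAA and 1 CCAAT match on the opposite strand. Over 32851 promoters of the RefSeq table, 4.39% held ATTAAT in the same window, 32.7% GGGCGG, 12.4% TATAAA, 6.02% CACGTG and 33.8% CCAAT. A match is a string of letters and says nothing of binding.

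Mmp9 (chr2:164940780-164955850, plus strand) had a lowest value of 12.6 CPM, a median of 198.2 and a highest value of 3144 CPM in the 110 cells. In the other cells its median was 0.233 CPM and its highest value 1119.5 CPM, with 35.1% of cells at 0. Htr1d (chr4:136423524-136444398, plus strand) had a lowest value of 10.1 CPM, a median of 135.1 and a highest value of 1273 CPM in the 110 cells. In the other cells its median was 0 CPM and its highest value 606 CPM, with 52.5% at 0. Both genes thus ran over a wide range within the chosen cells, and Mmp9 ranged further than Htr1d. The SD of log2(CPM + 1) was 1.97 for Mmp9 and 1.48 for Htr1d over the 110 cells. Cells high in one gene tended to be high in the other, with a Spearman rank correlation of 0.560 over the 110 cells, which share depth and library within a cell. Both genes stood at 100 CPM or more in 51 of the 110 cells.

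**Figure D1:**
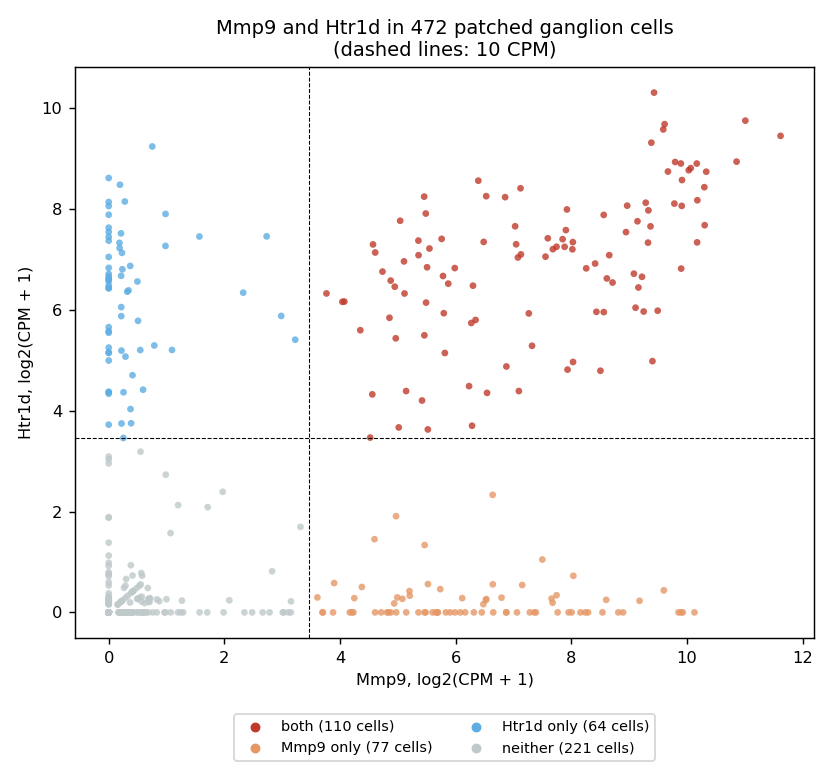
Level of Mmp9 (x axis) against Htr1d (y axis), both as log2(CPM + 1), with 1 point for each cell; dashed lines stand at 10 CPM. The 110 cells with both genes fill the upper right, 77 cells had Mmp9 only, 64 Htr1d only and the rest neither, and most cells outside the upper right lie near 0 on at least 1 axis.

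Few cells lay near the threshold. In 13 of the 110 cells either gene was under 20 CPM, and in 3 of the other cells were both at 5 CPM or more. The 2 chosen cells nearest the threshold had 21.98 CPM of Mmp9 with 10.1 of Htr1d, and 44.9 of Mmp9 with 11.4 of Htr1d. The 2 nearest cells left out had 8.36 CPM of Mmp9 with 41.6 of Htr1d, and 6.91 of Mmp9 with 58.01 of Htr1d. Both of those left-out cells also held Fam163a (68.2 and 85.5 CPM) and Rasd2 (217.3 and 183.1 CPM).

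The cells with the pair yielded richer libraries than the rest. They had a median of 5521442 gene counts (629358 to 13004880) and 6172.5 genes at 10 CPM or more, against 5023432.5 gene counts (58907 to 10057116) and 5398.5 genes in the other cells. Under 3000 genes were positive in 4 of the 110 cells against 69 of the other cells. Library names fell into 5 groups by a flow-cell code or order number within the name, called runs A to E here. No label says that these groups are sequencing runs or which animals they hold. In that order, 63, 23, 14, 4 and 6 of the cells with the pair came from them. Run D stood apart with 6.78% of its cells chosen, against 22.6 to 31.6% in the others, and its other 55 cells had a median of 2734 positive genes. Because of this gap, shares are given below also among cells with 5000 or more positive genes, 88 with the pair (median 6433 positive genes) against those without it (median 6234). The part of library richness in any single difference was not tested.

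The markers that did not choose the cells were at 10 CPM or more in most of them. Fam163a (chr1:156075966-156205026, minus strand) was positive in 70% of the 110 cells (60.5 to 78.4%) against 25.1% of the others (20.8 to 29.9%). Its CPM ran from 0 through a median of 80.5 to 819.6 in the cells with the pair, and from 0 through 0.204 to 784 in the others. Rasd2 (chr8:75213944-75224113, plus strand) was positive in 83.6% (75.4 to 90%) against 45.9% (40.6 to 51.1%), with a median of 97.5 CPM and a highest value of 1033 against a median of 3.99 CPM and a highest value of 648. The ranges overlapped widely for both genes. The intervals of the shares did not meet, but they cover counting error only and are no test between cells. Both markers were present together in 73 of the 110 cells (66.4%) against 56 of the others (15.5%), and 14 of the 110 cells held neither. Among cells with 5000 or more positive genes, Fam163a was positive in 78.4% against 33.2% and Rasd2 in 87.5% against 61.95%. Fam163a was higher in all 5 runs, by 40.6 to 83.6 percentage points, and Rasd2 by 27.99 to 80 points. Without run D, Fam163a was positive in 68.9% and Rasd2 in 83.02% of the cells with the pair.

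Across the transcriptome, 12915 genes were positive in at least 5% of all cells and were compared. The share of positive cells was at least 40 percentage points higher with the pair for 10 genes (0.0774% of those compared) and at least 40 points lower for 0 genes (0%). They included Bnc2, Pcdh8, Fam163a, Cdh6, Gabrg3, Calb1, Tmeff2, Gng4 and Fxyd7. The median gene stood 7.52 points higher with the pair and 84.4% of genes stood higher, so differences are best read against that shift. Among cells with 5000 or more positive genes the median difference was 0.369 points, 52.9% of genes stood higher, and 7 genes passed 40 points upward (0.0517% of 13530) and 0 downward (0%). Over all cells the count was 16 without run A, 16 without run B, 5 among cells with 3000 or more positive genes and 19 without cells that held 3 or more bipolar markers. Those of the richer cells included Bnc2, Pcdh8, Fam163a, Gabrg3, Tmeff2 and Chrna3.

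A regulator of transcription and genes of cell contact headed the ranking. Bnc2 (chr4:84275095-84675275), a zinc-finger protein of the basonuclin family, was positive in 66.4% of the 110 cells (56.7 to 75.1%) against 9.94% of the others (7.06 to 13.5%). Its CPM ran from 0 through a median of 50.1 to 684 with the pair, and from 0 through 0 to 553 in the others. Bnc2 had the largest difference of all genes compared, 56.4 points, and it was 59.9 points among the richer cells. By run it was higher by 31.2 to 73.2 points. Pcdh8 (chr14:79766775-79771312), a protocadherin that tunes synaptic adhesion, was positive in 81.8% (73.3 to 88.5%) against 26.5% (22.04 to 31.4%), with medians of 178.4 and 0.282 CPM. Cdh6 (chr15:13028701-13173675), a classical cadherin known from direction-selective ganglion cells, was positive in 66.4% against 22.4%.

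Genes of signalling and membrane transport made up most of the rest. Gabrg3, which encodes the gamma-3 subunit of GABA-A receptors, was positive in 66.4% against 22.4%, and Chrna3, the alpha-3 subunit of nicotinic acetylcholine receptors, in 59.1% against 19.6%. Gng4, a gamma subunit of G proteins, was positive in 75.5% against 34.5%, and Fxyd7, a small regulator of the sodium pump, in 86.4% against 45.9%. Calb1, the calcium buffer calbindin, was positive in 86.4% against 43.6%, and its median was 385.7 CPM against 2.19 CPM. Over all cells, each of these 5 genes was present in most of the cells with the pair and in a minority of the others. Among cells with 3000 or more positive genes, Fxyd7 was positive in 87.7% against 49.8% and Calb1 in 86.8% against 49.5%. There Gng4 was positive in 76.4% against 40.3%, Gabrg3 in 68.9% against 24.9% and Chrna3 in 59.4% against 21.5%. Syt6, a member of the synaptotagmin family, was positive in 64.5% against 24.6%, Ano3, a TMEM16-family membrane protein, in 65.5% against 28.7%, and Tmeff2, a transmembrane protein with follistatin-like domains, in 60% against 18.5%. Fam19a1, a secreted chemokine-like protein, was positive in 48.2% against 8.29%. It was the only one of the 15 leading genes not higher in every run, at 0% of both groups in run E. The 110 cells held a median of 11 of these 15 genes (1 to 15) and the others 4 (0 to 13), a count that follows from how the 15 were picked. Annotated exons of Gm9748, Atg4a-ps and Muc15 lie antisense to Pcdh8, Syt6 and Ano3, and since counting by strand is not stated, reads from each such pair cannot be told apart.

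**Figure D2:**
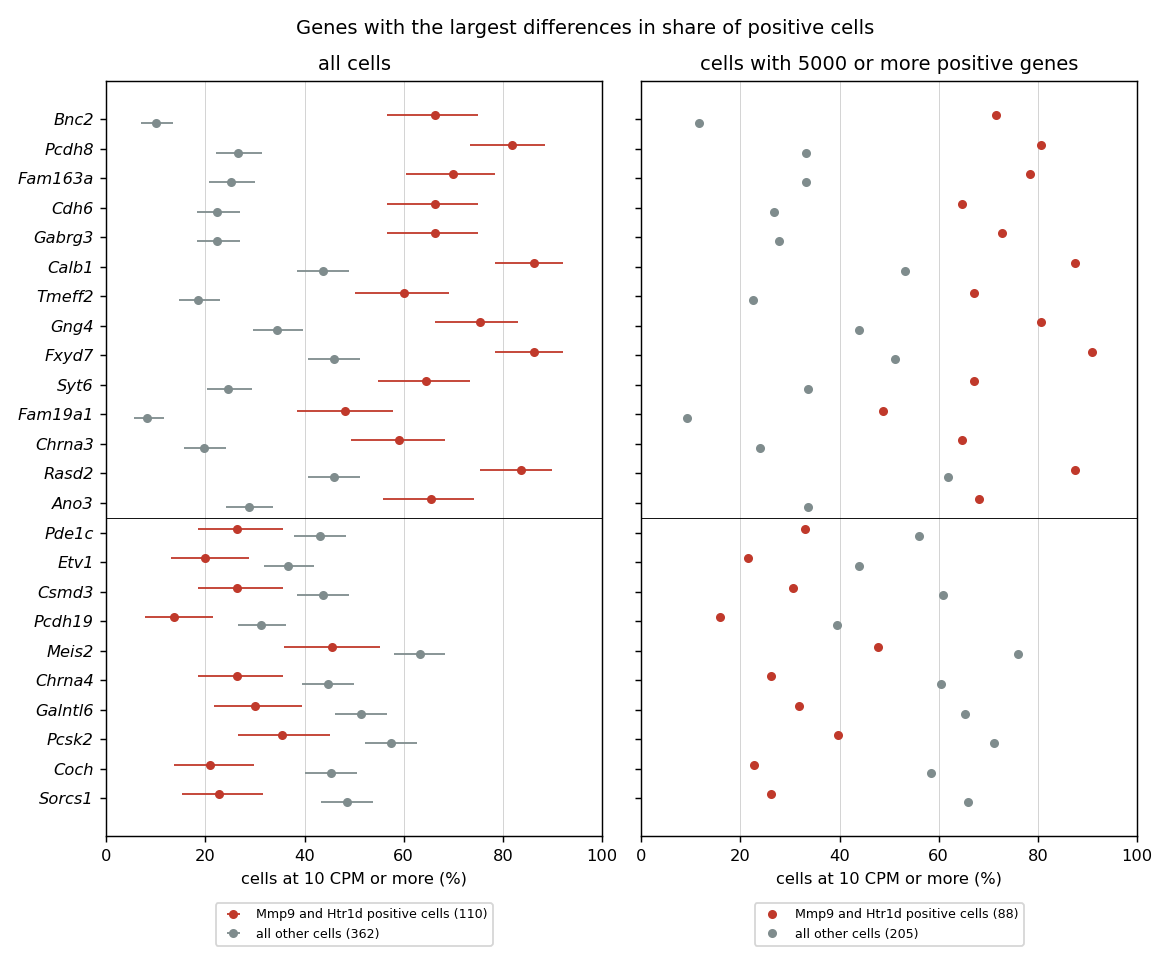
Share of cells at 10 CPM or more (x axis, %) for 14 of the 15 genes with the most positive and the 10 with the most negative difference, in cells with Mmp9 and Htr1d (red, upper point) and all other cells (grey, lower point). The left panel has all cells with exact 95% intervals and the right panel the cells with 5000 or more positive genes (88 of them with the pair), where Bnc2 stood at 71.6% against 11.7% and Sorcs1 at 26.1% against 65.9%.

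Differences of 20 points or more toward a lower share with the pair were few over all cells. A share at least 20 points lower was seen for 4 genes (0.031%), Sorcs1, Coch, Pcsk2 and Galntl6, against 585 genes at least 20 points higher (4.53%). Among the richer cells 0.429% of genes were as far lower and 0.754% as far higher. Sorcs1 (chr19:50143299-50678646), a sorting receptor of the VPS10 family, was positive in 22.7% of the 110 cells (15.3 to 31.7%) against 48.6% of the others (43.4 to 53.9%). Its CPM had a median of 0 and a highest value of 367.1 with the pair, against a median of 6.89 and a highest value of 809 in the others. Sorcs1 was lower in all 5 runs, at -34.3 to -19.9 points, and the difference was -39.7 points among the richer cells. Pcsk2, a convertase that processes prohormones, was positive in 35.5% against 57.5%, and was likewise lower in every run. Coch, which encodes the matrix protein cochlin, was positive in 20.9% against 45.3%, and Galntl6, of the GalNAc-transferase family, in 30% against 51.4%. The last 2 differences rested much on run A: without it the difference was -12.8 points for Coch and -4.08 points for Galntl6. Meis2, a homeodomain factor, was positive in 45.5% against 63.3%, and Pcdh19, a protocadherin on the X chromosome, in 13.6% against 31.2%. Antisense transcripts are annotated across exons of Sorcs1, Pcsk2, Galntl6 and Pcdh19.

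Nicotinic receptor subunits stood on opposite sides. Chrna4, the alpha-4 subunit, was positive in 26.4% of the cells with the pair (18.4 to 35.6%) against 44.8% of the others (39.6 to 50.04%), while Chrna3 was the more frequent there. Among the richer cells, Chrna4 stood at 26.1% against 60.5% and Chrna3 at 64.8% against 23.9%. Chrna6 and Chrnb3, also subunits, were in nearly all cells of both groups, at 97.3% against 87.8% and 98.2% against 85.1%. Chrnb4, which pairs with Chrna3 in ganglia of the autonomic system, was positive in 8.18% against 4.42%, and Chrna5 in 0 of the 110 cells. Of 7 nicotinic genes compared, 1 was over 20 points higher and 0 over 20 points lower, with a median difference of 9.43 points. Over all genes compared, 4.53% were as far higher and 0.031% as far lower, with a median of 7.52 points.

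Cells with only 1 gene of the pair held the leading genes at shares between those of cells with both and cells with neither. The 15 were picked for a high share in cells with both against all the rest. The top place of cells with both, and their distance from the other groups, thus follow in large part from the picking. Bnc2 was positive in 66.4% of cells with both genes, 22.1% of the 77 with Mmp9 only, 9.38% of the 64 with Htr1d only and 5.88% of those with neither. Pcdh8 followed the same order, at 81.8%, 42.9%, 28.1% and 20.4%. Fam163a and Rasd2 stood together in 66.4% of cells with both genes, 20.8% with Mmp9 only, 23.4% with Htr1d only and 11.3% with neither. For the 15 leading genes, cells with 1 gene lay much nearer to cells with neither, with a median of 5 leading genes with Mmp9 only, 5 with Htr1d only and 3 with neither. These groups also differed in richness, at medians of 6172.5, 5409, 5888.5 and 5014 positive genes in the same order. Some genes split the single-gene cells: Kcng4 was positive in 24.7% with Mmp9 only and 42.2% with Htr1d only, and Eomes in 7.79% and 20.3%.

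**Figure D3:**
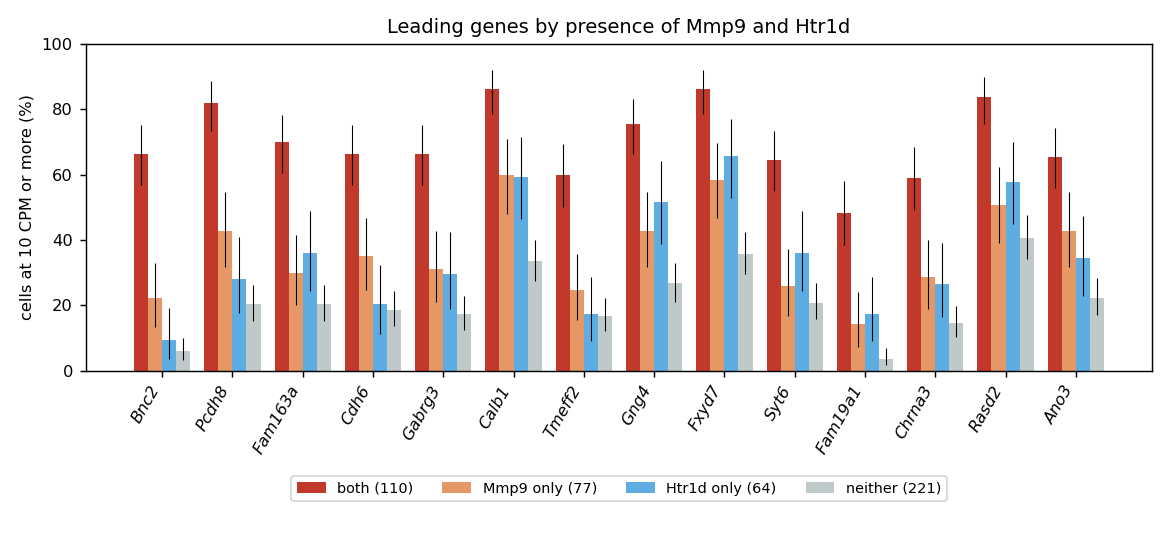
Share of cells at 10 CPM or more (y axis, %) for 14 of the 15 leading genes in cells with both genes (110), Mmp9 only (77), Htr1d only (64) and neither gene; bars are shares and lines exact 95% intervals. The bar for both genes is the highest for each gene plotted, as for Fam19a1 at 48.2% against 14.3%, 17.2% and 3.62%, which follows in large part from how the 15 were picked.

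All 110 cells were ganglion cells by marker. At least 6 of 12 ganglion-cell genes were positive in 110 of 110 cells with the pair and in 94.2% of the others, and Rbpms, Sncg, Nefm, Nefl and Thy1 were positive in all 110. Of the POU4F factors that mark ganglion cells, Pou4f1 was positive in 89.1% against 79.3%, Pou4f2 in 30.9% against 27.3%, and Pou4f3 in 33.6% against 21.5%. Isl1, a LIM-homeodomain factor, was positive in 96.4% against 70.99%, and in 96.6% against 83.9% of the richer cells. The median difference of the 12 genes was 9.42 points, and 1.03 points among the richer cells, close to the median of all genes in each set.

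Among transcription factors that mark ganglion cell classes, Bnc2 was the one with a wide gap. Of 12 such factors compared, 1 was over 20 points higher and 0 over 20 points lower. Their median was -1.92 points against 7.52 for all genes, of which 4.53% were as far higher and 0.031% as far lower. Neurod2 was positive in 7.27% against 14.9%, Tbr1 in 11.8% against 18.2%, and Eomes, a factor of melanopsin cells, in 4.55% against 9.94%. Satb1 was positive in 46.4% against 40.3%, Tfap2d in 32.7% against 35.6%, Foxp1 in 22.7% against 18.2%, and Foxp2 in 7.27% against 7.73%. Irx3 and Irx4 each stood at 14.5% against 15.5%. Zic1 and Tbx20, which were too rare to be compared, were positive in 6 and 4 of the 110 cells.

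Markers of known classes were spread unevenly. Of 5 markers of alpha cells, the large ganglion cells, 0 passed 20 points and the median was -5.95 points. All genes compared had a median of 7.52 points, with 4.53% at least 20 points higher and 0.031% as far lower. Kcng4 was positive in 16.4% against 29.6%, Spp1 in 38.2% against 48.9%, Scn4b in 32.7% against 38.7%, Nefh in 85.5% against 75.97% and Pvalb in 86.4% against 72.9%. At least 3 alpha markers were present in 47.3% (37.7 to 57.02%) against 50% (44.7 to 55.3%). At least 3 of 4 markers of ON-OFF direction-selective cells were present in 20.9% (13.7 to 29.7%) against 7.46% (4.97 to 10.7%). Among these markers Cdh6, itself one of the 15 leading genes, was at 66.4% against 22.4%, Col25a1 at 20.9% against 11.6%, Cartpt at 69.1% against 55.8% and Mmp17 at 6.36% against 6.08%. Opn4, the melanopsin gene, was positive in 7.27% against 12.2%, and at least 3 of 5 melanopsin-cell markers in 0 of 110 cells (a count of 0 leaves room for 2.73%), against 1.1% of the others. Adcyap1, the peptide PACAP of many melanopsin cells, was the exception at 48.2% against 22.9%. At least 3 of 4 markers of F-type cells were present in 2.73% against 3.59%, and at least 3 of 4 T-type markers in 0.909% against 3.31%. Jam2, a T-type adhesion marker, was positive in 44.5% against 42.3%, Sorcs3 in 6.36% against 11.3% and Cdh8 in 8.18% against 9.94%.

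Transcripts of most neighbouring cell types were present in both groups at like shares. At least 3 rod markers were positive in 63.6% of the 110 cells (53.9 to 72.6%) against 64.1% of the others (58.9 to 69.04%), with summed levels of 0.411 to 141673 CPM against 0 to 242783 CPM. At least 3 markers were present in 32.7% against 30.9% for bipolar cells, 42.7% against 42.3% for amacrine cells, 81.8% against 78.7% for Müller glia, 10% against 11.9% for cones and 5.45% against 1.93% for astrocytes. Summed levels ran from 0 to 1943 CPM against 0 to 2529 for bipolar and from 0.203 to 2576 against 0 to 4880 for amacrine markers. For Müller markers they ran from 31.4 to 8410 CPM against 3.57 to 48247.5. Median summed levels were 292.8 against 475.8 CPM for rod, 182.6 against 373.8 for amacrine and 755.6 against 1041 for Müller markers. Those of bipolar, cone and astrocyte markers went the other way, at 87.1 against 63.8, 2.68 against 0.573 and 4.13 against 2.85 CPM. Horizontal-cell markers had the widest gap, at 33.6% (24.9 to 43.3%) against 9.12% (6.36 to 12.6%). That list holds 4 genes, among them Calb1, itself one of the 15 leading genes, so this gap follows in part from the picking. Of the others, Onecut1 was at 33.6% against 12.7%, Sept4 at 94.5% against 83.98% and Lhx1 at 4.55% against 2.21%. Markers of neutrophils, a rich source of Mmp9 in blood, were at or near 0: all 6 neutrophil markers were under 10 CPM in the 110 cells, which allows up to 2.73% of cells, and their summed level was at most 0.188 CPM, against 37.1 CPM in the others. At least 3 microglial markers were present in 2 of the 110 cells against 9 of the others, 3 vessel markers in 0 against 0, and 3 red-cell markers in 5 against 17.

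Relatives of the pair were found at like shares in both groups. Of 14 serotonin receptor genes, 3 besides Htr1d were common enough to be compared, and 0 passed 20 points. Over all genes compared, 4.53% were at least 20 points higher and 0.031% as far lower. Htr1b, a close relative of Htr1d, was positive in 56.4% against 55.8%, Htr5a in 26.4% against 21.3% and Htr2a in 3.64% against 5.52%. Htr5b was positive in 4 of the 110 cells, Htr1a and Htr2b in 3 each, Htr1f and Htr7 in 2 each, Htr2c and Htr3a in 1 each, and Htr3b, Htr4 and Htr6 in 0. Of 16 matrix metalloproteinase genes, 4 besides Mmp9 were compared and 0 passed 20 points. Mmp15 was positive in 45.5% against 34.3%, Mmp16 in 35.5% against 30.1%, Mmp24 in 18.2% against 12.7% and Mmp17 as given above. Mmp2, the other gelatinase, was positive in 0 of the 110 cells against 3 of the others. Mmp12 was positive in 4 of the 110 cells against 0 of the others, a count that leaves room for 0.829%. Of the inhibitors, Timp2 was positive in 40.9% against 29.6%, Timp3 in 33.6% against 33.1%, Timp4 in 8.18% against 8.29% and Reck in 16.4% against 9.39%, while Timp1 was positive in 0 of the 110 cells.

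Matrix around neurons, a substrate of metalloproteinases, was measured by 10 genes. Of 9 compared, Tnr, which encodes tenascin-R, was over 20 points higher, at 70.9% against 46.96%, and 0 were over 20 points lower. Among the richer cells the counts were 0 higher and 1 lower, and Tnr stood at 70.5% against 57.6%. Of all genes, 4.53% were as far higher over all cells and 0.754% among the richer cells. As far lower were 0.031% and 0.429%. The 1 lower was Hapln1, a link protein of the hyaluronan matrix, at 6.82% against 27.3% of the richer cells and 5.45% against 19.3% of all. Bcan was positive in 69.1% against 58.6%, Hapln4 in 62.7% against 51.9%, Dag1 in 48.2% against 42.3%, Ncan in 40% against 32.3%, and Vcan, Tnc and Cd44 in 4.55 to 7.27% against 6.35 to 7.18%. Genes of Gi/o signalling showed 0 of 18 past 20 points in either direction, with a median of 8.98 points, and 0.909 points among the richer cells. The 4 highest differences were those of Adcy2 (69.1% against 51.9%), Rgs7 (81.8% against 65.5%), Gnaz (76.4% against 61.6%) and Gnai1 (80.9% against 66.3%), and the 3 lowest those of Kcnj3 (24.5% against 29.8%), Kcnj6 (16.4% against 20.2%) and Adcy1 (63.6% against 64.9%).

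Most ion channel genes stayed within 20 points of the other cells. Of all genes compared, 4.53% were at least 20 points higher and 0.031% as far lower, with a median of 7.52 points. Among the richer cells these shares were 0.754% and 0.429%, with a median of 0.369 points. Among 8 sodium channel genes 1 was over 20 points higher, Scn3b, an auxiliary beta subunit, at 63.6% against 37.8%, and at 73.9% against 43.4% of the richer cells. The pore-forming Scn1a, Scn2a, Scn3a and Scn8a were positive in 65.5 to 99.1% against 55.8 to 91.7%, and the beta subunit Scn2b in 95.5% against 86.5%. Among 22 potassium channel genes 2 were over 20 points higher and 0 lower, with a median of 7.34 points. These were Kcnc4, a Kv3-family subunit of fast-firing neurons, at 73.6% against 40.6%, and the auxiliary subunit Kcnab1 at 50.9% against 29.8%. Kcna1 and Kcna2, the next highest, were at 79.1% against 62.98% and 89.1% against 74.3%, and the 3 lowest were Kcng4, Kcnb2 (32.7% against 42.3%) and Kcnma1 (63.6% against 66.3%). Among the richer cells 1 potassium channel gene was over 20 points higher, Kcnc4 (77.3% against 50.2%), and 1 lower, Kcnb2 (35.2% against 55.6%). Of 11 calcium and HCN channel genes 1 was over 20 points higher and 0 lower over all cells, and 0 were over 20 points higher among the richer cells. Cacna1h, a T-type calcium channel, was positive in 23.6% against 33.7%, while Cacna1g of the same family was positive in 53.6% against 36.2%.

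Subunits of GABA and glycine receptors differed in both directions. Of 17 genes, 3 were over 20 points higher and 0 lower among all cells, with a median difference of 10.6 points. Among the richer cells 3 were higher and 2 lower, with a median of 2.78 points. Over all genes the medians were 7.52 and 0.369 points. As far higher were 4.53% and 0.754% of all genes, and as far lower 0.031% and 0.429%. The 3 higher were Gabrg3, Gabra2 (87.3% against 57.7%, median 104.05 CPM against 20.4 CPM) and Gabrb1 (51.8% against 26.5%). Among the 2 lower was Glra1, the alpha-1 glycine receptor subunit, at 12.5% against 38.05% of the richer cells, and 11.8% against 28.5% over all cells. Gabra4, the fourth highest over all cells, was positive in 39.1% against 21.8%, and Gabra3, among the 3 lowest, in 25.5% against 33.1%. Of 17 glutamate receptor genes, 3 were over 20 points higher over all cells and 0 among the richer cells. These were Grm7, a metabotropic receptor of axon terminals, at 71.8% against 44.5%, the NMDA receptor subunit Grin2a at 70.9% against 48.1%, and the AMPA receptor subunit Gria3 at 81.8% against 61.6%. Grin2b was positive in 64.5% against 44.8%, and the 3 lowest were Grik2 (17.3% against 25.97%), Grm8 (25.5% against 32.3%) and Grin3a (9.09% against 15.2%).

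Of 28 adhesion genes compared, 5 were over 20 points higher and 0 lower. Among the richer cells 4 of 29 were higher and 1 lower. For all genes compared, 4.53% were as far higher and 0.031% as far lower, and among the richer cells 0.754% and 0.429%. The 4 highest were Pcdh8, Cdh6, Cntn4, a contactin of axons, at 73.6% against 43.6%, and Cdh7 at 45.5% against 23.2%, and the 3 lowest were Pcdh19, Tenm1 (15.5% against 23.8%) and Cdh10 (15.5% against 23.2%). The fifth was Tenm2, a teneurin, at 75.5% against 54.4%. Of 11 calcium-binding proteins 4 were over 20 points higher: Calb1, Hpcal1 (79.1% against 47.5%), Hpca (94.5% against 69.1%) and Ncald (76.4% against 54.97%). Among the richer cells 2 of the 11 were over 20 points higher and 1 lower. Hpca encodes the neuronal calcium sensor hippocalcin, and Hpcal1 and Ncald encode its relatives. Caln1 went the other way, at 55.5% against 66.02%, and 60.2% against 84.4% of the richer cells. Calb2, calretinin, was common in both groups, at 86.4% against 93.4%. Necab1, Necab2 and Cabp1 stood at 16.4%, 38.2% and 81.8% against 18.5%, 31.8% and 65.2%, and Hpcal4 at 33.6% against 32.04%.

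Of 8 neuropeptide genes compared, Adcyap1 and Cck were over 20 points higher, and Gal was lower by over 20 points among the richer cells. In all genes compared, 4.53% were as far higher over all cells, and 0.429% were as far lower among the richer cells. Cck, cholecystokinin, was positive in 45.5% against 20.4%, and Gal, galanin, in 5.45% against 22.1%, and in 5.68% against 26.3% of the richer cells. Gal was lower in every run. Tac1 was positive in 8.18% against 14.6%, Penk in 12.7% against 17.96%, Npy in 12.7% against 12.4% and Pdyn in 2.73% against 6.63%, while Sst, Vip, Crh, Nmb and Nppb were positive in at most 2 of the 110 cells. Immediate early genes, which follow neuronal activity and handling, had 1 of 11 over 20 points higher, Dusp1 at 92.7% against 72.7%, and 0 of 12 among the richer cells. The next highest were Fosb (78.2% against 62.4%), Jun (78.2% against 62.98%) and Npas4 (30.9% against 16.02%), and the lowest Nr4a1 (29.1% against 22.1%), Arc (20% against 12.7%) and Egr4 (12.7% against 4.14%). Their median difference was 12.4 points, and 3.84 points among the richer cells, where the median over all genes was 0.369.

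**Figure D4:**
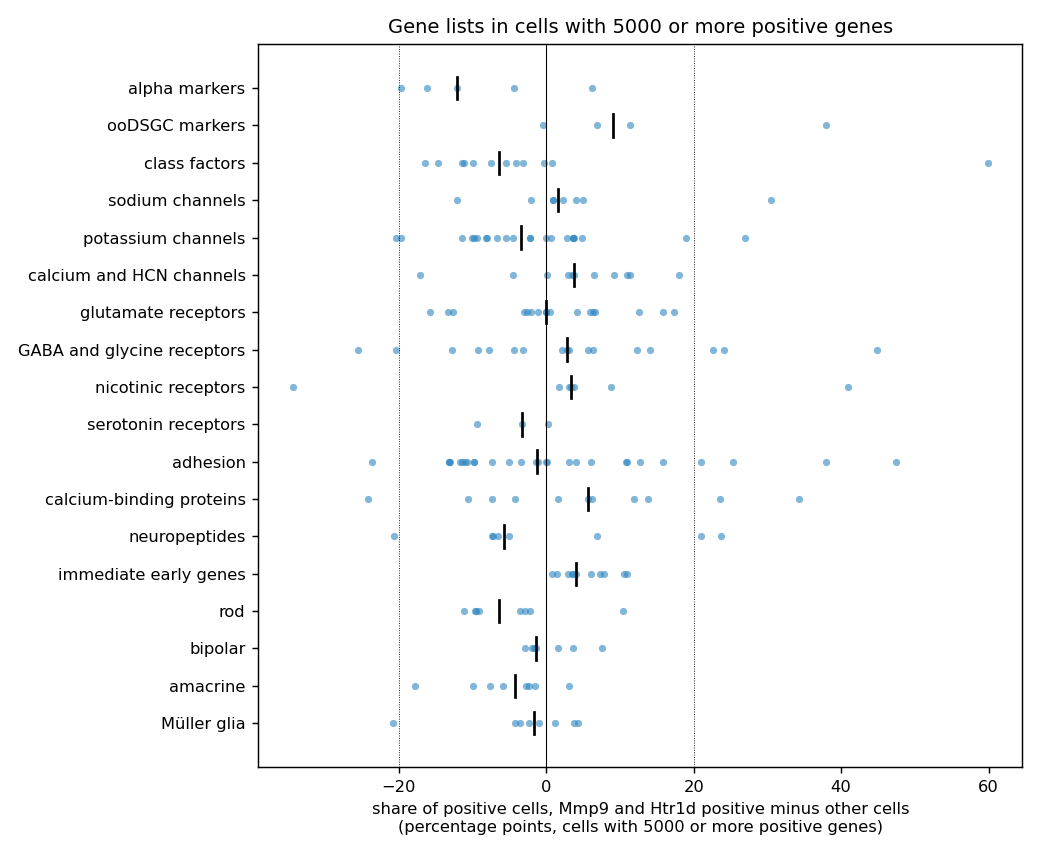
Difference in the share of positive cells, cells with Mmp9 and Htr1d minus other cells (x axis, percentage points), among cells with 5000 or more positive genes (88 with the pair); each point is a gene, rows are gene lists, black bars are list medians and dotted lines stand at 20 points either way. Alpha markers have a median of -12.1 points and markers of direction-selective cells 9.11 points, and Bnc2 stands alone on the right among the class factors at 59.9 points.

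The cells with the pair were not uniform. Col25a1, a transmembrane collagen, was positive in 23 of the 110, Tfap2d, a factor of the AP-2 family, in 36, and Satb1, a chromatin organizer, in 51, and these met in the same cells. Of the 23 cells with Col25a1, 19 held Tfap2d (82.6%, against 32.7% of all 110), 20 held Satb1 (86.96%, against 46.4%) and 21 held Cdh6 (91.3%, against 66.4%). Tmeff2, Ano3 and Syt6 also met: of 66 cells with Tmeff2, 55 held Ano3 (83.3%, against 65.5% of all 110) and 52 held Syt6 (78.8%, against 64.5%). The sets overlapped in part. Of 36 cells with Tfap2d, 12 held Ano3 (33.3%), 15 held Syt6 (41.7%) and 15 held Tmeff2 (41.7%). Of 23 cells with Col25a1, 10 held Ano3 (43.5%), 8 held Syt6 (34.8%) and 11 held Tmeff2 (47.8%). Of 51 cells with Satb1, 25 held Ano3 (49.02%), 27 held Syt6 (52.9%) and 24 held Tmeff2 (47.06%). Each of these 9 shares lay below the share of all 110 cells with the same gene. Bnc2, at 66.4% of all 110 cells, spanned both sets. It was in 19 of the 23 cells with Col25a1 (82.6%), 23 of 36 with Tfap2d (63.9%) and 36 of 51 with Satb1 (70.6%). It was also in 51 of 66 cells with Tmeff2 (77.3%), 52 of 72 with Ano3 (72.2%) and 51 of 71 with Syt6 (71.8%). Pcdh8 was present in 71 of the 73 cells with Bnc2 (97.3%). The alpha markers Kcng4 and Spp1 met too: 18 cells had Kcng4, of which 14 held Spp1 (77.8%, against 38.2% of all 110). Alpha markers were not limited to these cells, since at least 3 of them were present in 47.3% of the 110. These genes were singled out after their joint counts were seen. The same genes also met in cells without the pair. There, Col25a1 met Tfap2d in 23 cells, Satb1 in 27 and Cdh6 in 29. Tmeff2 met Ano3 in 31 of those cells and Syt6 in 23, and Kcng4 met Spp1 in 92. Such meeting was thus not particular to the 110 cells.

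**Figure D5:**
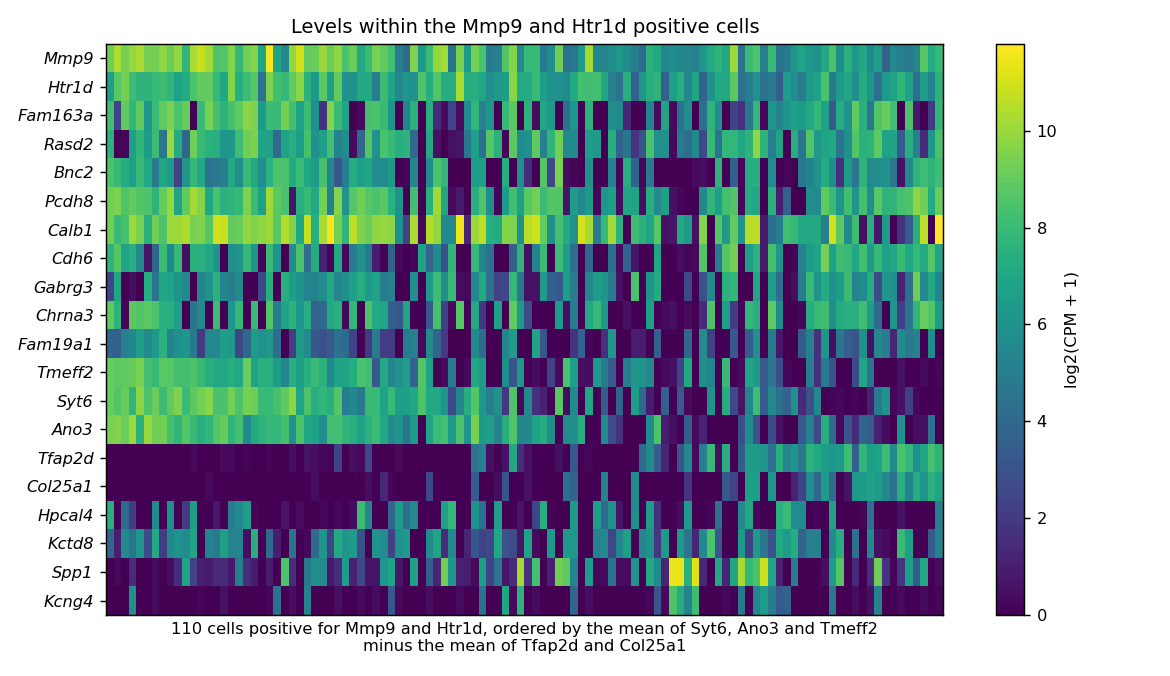
Level of 20 genes (rows, colour as log2(CPM + 1)) in the 110 cells with Mmp9 and Htr1d (columns), ordered by the mean of Syt6, Ano3 and Tmeff2 minus the mean of Tfap2d and Col25a1, so the gradient in those rows follows from the order. Pcdh8 and Calb1 run across most columns (81.8% and 86.4% of cells), while Spp1 and Kcng4 share 14 cells.

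Other pairs of genes that mark groups of ganglion cells were found in the 110 cells to different degrees. Hpcal4 and Kctd8 met in 24 of the 110 cells (21.8%, against 22.4% of the other cells). Spp1 and Kcng4 met in 14 of the 110 (12.7%, against 25.4%). Col25a1 and Cdh6 met in 21 of the 110 (19.1%, against 8.01%). Leaving out shared cells, Bnc2 was positive in 66.4% of the 110 cells, 55.2% of the 29 with Col25a1 and Cdh6, 6.17% of the 81 with Hpcal4 and Kctd8, and 5.43% of the 92 with Spp1 and Kcng4. Pcdh8 and Chrna3 were as frequent in the 29 cells, at 79.3% and 68.97%, against 81.8% and 59.1% in the 110. Gng4 was not, at 31.03% against 75.5%, and Calb1 stood at 51.7% against 86.4%. Fam163a was positive in 58.6% of the 29 cells, 46.9% of the 81 and 14.1% of the 92, against 70% of the 110. Rasd2 was positive in 58.6%, 65.4% and 55.4% in the same order, against 83.6% of the 110.

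At resolution 1, clustering of the 460 cells with at least 1000 positive genes gathered about as many of the 110 cells as it left elsewhere. A cluster of 66 cells, led by Pcdh8, Mmp9, Bnc2, Chrna3 and Fam163a, held 54 of them (49.1% of the 110 and 81.8% of the cluster). With Mmp9 and Htr1d left out of the clustering, a cluster of 69 cells held 55 (50% and 79.7%). At resolution 2, 33 of the 110 cells (30%) lay in a cluster of 34 cells led by Mmp9, Syt6, Ano3, Tmeff2 and Calb1, and 16 (14.5%) in a cluster of 27 cells led by Cartpt, Cdh6, Ak5, Satb1 and Pcdh11x. At resolution 1, 17 of the 110 cells lay in a cluster with Pkia and Kctd8 among its leading genes. Another 14 lay in one led by rod genes such as Prph2, Rbp3, Pde6b and Gnat1. The clusters were built from these genes, so their leading genes are a description.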

How the data were processed

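Single-cell RNA-seq of 472 patched ganglion cells was used: 110 cells held both genes and 362 did not (77 Mmp9 only, 64 Htr1d only, 221 neither), and 205 of the 362 had 5000 or more positive genes. The deposited table holds estimated counts per gene and cell, for 55450 genes and 92 ERCC spike-ins; 1.36% of the deposited values were not whole. The authors aligned reads with STAR 2.7.0 to mm10, per the submitters' processing notes; no label or file header names the counting tool, the strand setting or the annotation, which are therefore not given in the sources used here. Counts were rounded to whole numbers and, with spike-ins left out, scaled to 1000000 per cell (CPM). Positive means 10 CPM or more. All 55450 identifiers were found in GENCODE M21, which gave the 1-based mm10 coordinates.

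Intervals are exact 95% ones (Clopper-Pearson), and a count of 0 has the limit that 3 counts allow. A count model was planned for no comparison, since 1 group without named animals leaves nothing to test. Genes positive in at least 5% of cells were compared by difference in share, with 40 percentage points as the limit and 20 points for the gene lists. Named genes were the 4 markers, the 15 most positive and 10 most negative differences, and 34 lists with 322 genes, the lists of over 14 genes by counts and their 4 highest and 3 lowest differences. Some genes that the rule names are not reported here. The cells, lists and limits were chosen with earlier results of these data known. Counting was tested on simulated data. Python 3.11.15, numpy 2.4.6, pandas 2.3.3, scipy 1.17.1, scikit-learn 1.9.0 and leidenalg 0.10.2 were used; clustering took 2000 variable genes, 30 principal components and 15 neighbours. No doublet caller was run because cells were picked singly. Over the genes compared, the most alike pair of cells had a correlation of 0.714. Alternatives changed the CPM threshold, the scaling, the depth, the cells kept and the runs kept.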

Additional observations from a re-analysis of the deposited data

Results flagged for a closer look

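The ERCC spike-in RNAs, which no comparison above uses, took a median of 0.596% and at most 3.84% of all counts in the cells with Mmp9 and Htr1d, and a median of 0.848% and at most 31.1% in the other cells. They were singled out because they lie outside the gene measurements and stood above the 0.000475% that a count of 0 allows. None (0) of the 110 cells had over 5% spike-in counts, against 31 of the other cells. Their part in the differences between the groups was not tested.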

How the results depend on the processing

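Of the values recomputed for 10 results over 14 settings, 24 moved past the set limits. Calling genes positive at 100 CPM left 51 cells with the pair, 60.8% of them with Rasd2, 47.1% with Rasd2 and Fam163a, 1.96% with 3 or more bipolar and 1.96% with 3 or more alpha markers and 39.2% with 3 or more rod markers, a median of 2269 positive genes, and 19 genes at least 40 points higher. With 5 CPM as the threshold a cell had a median of 6714 positive genes, and with 20 CPM 5273. The number of genes at least 40 points higher was 5 among cells with 3000 or more positive genes and 19 without cells that held 3 or more bipolar markers, where 47.3% held 3 or more rod markers. Leaving out run A left 47 cells. Leaving out each run in turn gave 7 to 16 genes at least 40 points higher, with 16 without run A and 16 without run B. Alternatives chosen after seeing the data gave Fam163a in 78.4% among cells with 5000 or more positive genes. With 100 CPM required of Mmp9 and Htr1d alone, 51 cells were left, with Fam163a in 78.4%, Rasd2 in 90.2%, both in 76.5% and 3 or more alpha markers in 33.3%, and 17 genes were at least 40 points higher and 1 lower. The cause of these shifts was not tested beyond what each setting removes. Thinning to 1000000 gene counts, which left out 7 cells, and scaling without ribosomal RNA loci and mitochondrial genes moved none of the 10 results. No paired analysis was possible because there is 1 group and the cell numbers pair nothing. Depth limits what a value under 10 CPM can show, and without molecular identifiers the intervals cover counting error only. Animals are not named, so differences between animals cannot be told apart from differences between cells.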
